A study of Mus musculus with 3 samples.

Results

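Dividing thymocytes that carried transcripts of both the pre-TCR α chain (Ptcra) and the IL-2 receptor α chain, CD25 (Il2ra), were examined in 3 single-cell RNA sequencing runs of mouse thymocytes that lack CD4 and CD8. A cell was included when it had at least 1 unique molecular identifier (UMI, a tag that marks 1 captured RNA molecule) of Ptcra, at least 1 of Il2ra, at least 3 of the proliferation genes Mki67 and Top2a together, and none of Cd8a, Cd8b1 or Trac. Of 23283 cells deposited, 21879 had 500 to 5000 genes and at most 7% mitochondrial counts, and 1033 of these met the rule. They are called cycling Ptcra+ Il2ra+ cells here. Because these transcripts chose the cells, their levels are a description and were not tested.

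The thymi came from C57BL/6 mice labelled as 6 weeks old, with no treatment or transgene named, 4 thymi were pooled for each run, and cells with CD4 or CD8 were depleted with magnetic beads before sorting. The sort also gated out cells with TCRβ, NK1.1, CD11c, CD11b or B220 at the surface. The first run held total double-negative (DN) and TCRγδ+ thymocytes. For the second, DN1 and DN2 thymocytes were sorted, and for the third DN1 with DN2, DN3, and TCRγδ+ thymocytes were collected apart and mixed. DN1 cells are CD25- CD44+, DN2 cells CD25+ CD44+, DN3 cells CD25+ CD44- and DN4 cells CD25- CD44-. Each sort was made once, so the values of the 3 runs are given side by side and no test was made between runs. Classes of cells were compared through their summed counts within each run, with the run as a block. The p-values measure the spread of the class difference over the 3 runs, which differ in sort. They do not measure the spread between single animals.

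At the DN3 stage, thymocytes that have joined a TCRβ gene show the β chain at the surface with pre-Tα and the CD3 chains, and the signal of this pre-TCR is known to be followed by a burst of divisions. Notch and IL-7 signals sustain cells up to this step, while Rag1 and Rag2 form the recombinase that cuts the receptor genes. DN2 cells also divide, and they still carry progenitor transcripts such as Kit and Cpa3.

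The rule found 215 of 5516, 385 of 8852 and 433 of 7511 cells in the 3 runs. This was 3.90% (exact 95% binomial interval 3.40 to 4.44%), 4.35% (3.93 to 4.80%) and 5.76% (5.25 to 6.32%) of the cells within the limits, where the intervals cover counting error only. The shares depended on depth. The runs held 39947415, 52797915 and 98533329 UMIs in all, and the chosen cells a median of 9430, 10406 and 18074, against 5989.5, 4844 and 8507 over all cells within the limits. With every cell thinned to 2000 UMIs, 10 of 5516, 14 of 8852 and 27 of 7463 cells met the rule (0.181%, 0.158% and 0.362%), with 48 shallower cells of the third run left out.

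The label DN3-like was checked against the sorts. The second run was sorted for DN1 and DN2 cells, and 385 of the cells came from it, so the sort of that run goes against the label and the cells are named here by their transcripts. Of all Ptcra+ Il2ra+ cells with at least 3 UMIs of Mki67 and Top2a, a UMI of Cd8a, Cd8b1 or Trac left out 189, 78 and 56 cells of the 3 runs. The rule counts few molecules, with a median of 2 Ptcra UMIs per cell in each run and of 2, 3 and 5 Il2ra UMIs, and 93 of the 1033 cells had exactly 1 of each. In the summed cells, Ptcra was at 244, 259 and 166 CPM (counts per 1000000 UMIs) in the 3 runs and Il2ra at 229, 308 and 369 CPM. By the GENCODE annotation of GRCm38 (mm10), Ptcra lies on chromosome 17, 46755663 to 46763712, Il2ra on chromosome 2, 11642807 to 11693193, Mki67 on chromosome 7, 135689784 to 135716361 and Top2a on chromosome 11, 98992943 to 99024189.

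Free RNA in the droplets was gauged in cells with a B cell gene. Whether such cells express Il2ra or Rag1 themselves was not tested, so their values hold free RNA and any transcripts of their own. In the third run, 408 cells had at least 3 UMIs of the B cell gene Cd79a, with a median depth of 5073 UMIs against 8507 in the run. A Ptcra UMI was found in 5.88% of them (exact 95% interval 3.80 to 8.63%) against 28% of all cells of the run, and an Il2ra UMI in 20.6% (16.8 to 24.8%) against 56.1%. Of the 408 cells, 12.0% had at least 3 UMIs of Mki67 and Top2a, and 3 met the rule. The first and second runs held only 3 and 17 cells with that many Cd79a UMIs. A Scrublet doublet score, which marks cells that resemble mixtures of 2 cells, in the highest 8% of its run was found for 18.6%, 13.0% and 12.9% of the chosen cells, against 8.59%, 8.37% and 8.59% of all cells within the limits. Of barcodes, 72 were shared between the first and second runs and 3 between the first and the third, and 0 shared barcodes were chosen in both.

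The number of Mki67 and Top2a UMIs divided the Ptcra+ Il2ra+ cells differently in the 3 runs. Cells with 0 of these UMIs numbered 639, 664 and 847, cells with 1 or 2 numbered 205, 225 and 563, and the chosen cells had a median of 7, 7 and 19. Just outside the threshold, cells of the first run with 2 UMIs had 6494 CPM of 42 S phase genes summed, and those just inside with 3 UMIs had 7919 CPM. The second run had 6654 and 6763 CPM. In the third run the values were 2509 and 3404 CPM, and cells with 10 or more UMIs reached 6982 CPM, so that the 56 cells at the threshold of that run lay nearer to the cells left out than to most of those chosen. A threshold of 5 UMIs kept 159, 298 and 353 cells.

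**Figure D1:**
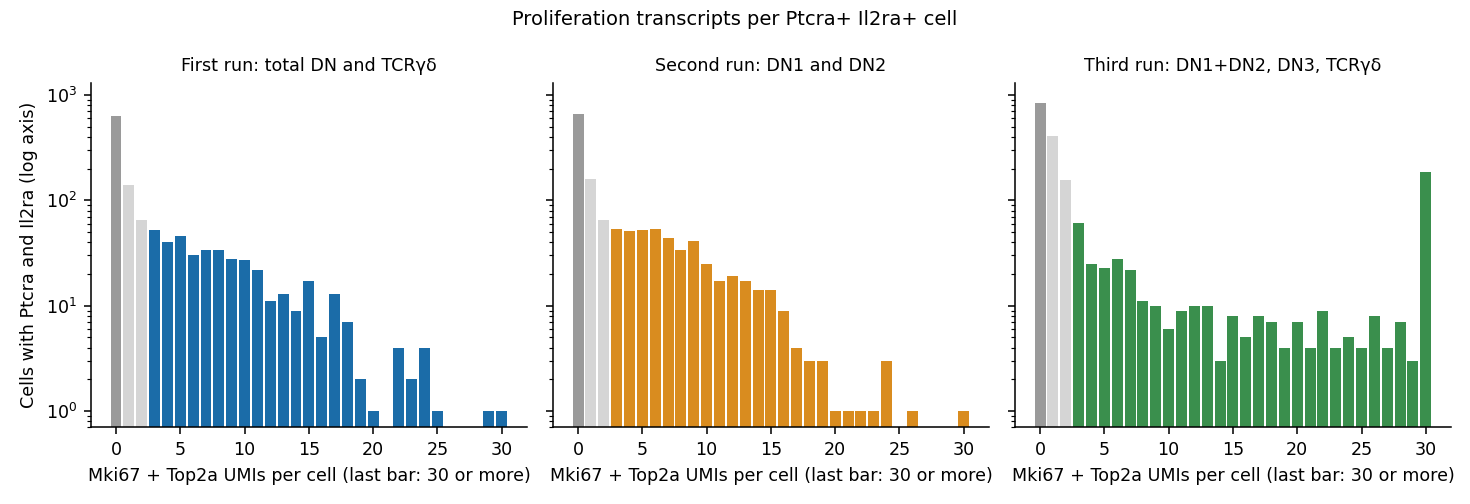
Number of cells (vertical, log axis) with at least 1 Ptcra and 1 Il2ra UMI by their Mki67 and Top2a UMIs (horizontal) in each run, before cells with Cd8a, Cd8b1 or Trac are left out. The bar at 0 holds the 639, 664 and 847 non-cycling cells, and the third run has a group of cells at 30 or more that the others lack.

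The first question was what else differed between cycling and non-cycling cells that both carried Ptcra and Il2ra. Non-cycling cells had no Mki67 or Top2a UMI, and cycling cells were paired with 1 of them each from the same run whose total UMIs were within 10%. This gave 130, 147 and 133 pairs out of 215, 385 and 433 cycling cells. The paired cells were the shallower ones, with a median of 7140, 8259 and 12464 UMIs against 9430, 10406 and 18074 over all cycling cells, and the others did not enter this comparison. Of 7948 genes tested, 542 (6.82%) were higher and 237 (2.98%) lower in the cycling cells, 9.8% in either direction (adjusted p under 0.05, edgeR's quasi-likelihood test). The S phase, G2/M and histone lists made up 89 of the 542, which follows from the choice of cells and is no finding. The G2/M genes summed to 11780.3, 15759.7 and 7253 CPM in the cycling cells of the 3 runs against 4325, 3488 and 2405 CPM, and the S phase genes to 7171, 6475 and 5779.7 against 4491, 4622 and 2155 CPM. Beyond these lists, genes with at least 50 CPM in the higher class and the same direction in each run were ranked. The 8 largest increases were of Fam64a, Plk1, Kif15, Mxd3, Spc25, Esco2, Neil3 and Ncapg, with log2 fold changes between 3.63 and 4.42. They include the mitotic kinase Plk1, the kinetochore gene Spc25 and the condensin gene Ncapg, and are tied to the choice of cells as well. How many of the 453 higher genes outside the lists are tied to it was not tested.

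Promoters of cell cycle genes are printed here to show what the starts of the 2 waves of transcripts in these cells share. For 30 of the 42 S phase genes and 44 of the 50 G2/M genes, a RefSeq promoter of GRCm38.p6 (250 bases before to 50 after the start) was matched by symbol. The letters TTTGAA, known as the core of the cell cycle homology region of late cell cycle genes, stood on either strand in 31 of 44 G2/M promoters (70.5%), 6 of 30 S phase promoters (20%) and 20.2% of all 27025 promoters of the table. E2F motifs (TTTGGCGC, TTTCGCGC or TTTCCCGC, either strand) stood in 3 of 44 (6.82%), 12 of 30 (40%) and 2.12%, respectively. The letters CCAAT were in 33 of 44 (75%), 21 of 30 (70%) and 41.1%, and the E box CACGTG in 3 of 44 (6.82%), 2 of 30 (6.67%) and 8.09%. A match is a run of letters and not a shown site. From each list, the 2 genes with the largest increase and exactly 1 promoter in the table are given 5′ to 3′ on the strand of the gene, with matches to these motifs in capitals. They are E2f8 (chr7:48881547-48881846, minus strand), an E2F family repressor, and Clspn (chr4:126556730-126557029, plus strand), a protein of the replication checkpoint, from the S phase list, and Nusap1 (chr2:119618048-119618347, plus strand), a spindle protein, and Ube2c (chr2:164769679-164769978, plus strand), a ubiquitin-conjugating enzyme of mitotic exit, from the G2/M list.
E2f8: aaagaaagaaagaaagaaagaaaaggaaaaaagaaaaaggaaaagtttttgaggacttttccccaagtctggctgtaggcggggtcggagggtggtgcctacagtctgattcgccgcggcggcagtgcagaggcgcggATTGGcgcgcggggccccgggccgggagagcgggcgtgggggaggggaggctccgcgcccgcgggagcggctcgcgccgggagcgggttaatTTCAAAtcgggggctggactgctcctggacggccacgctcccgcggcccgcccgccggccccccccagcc
Clspn: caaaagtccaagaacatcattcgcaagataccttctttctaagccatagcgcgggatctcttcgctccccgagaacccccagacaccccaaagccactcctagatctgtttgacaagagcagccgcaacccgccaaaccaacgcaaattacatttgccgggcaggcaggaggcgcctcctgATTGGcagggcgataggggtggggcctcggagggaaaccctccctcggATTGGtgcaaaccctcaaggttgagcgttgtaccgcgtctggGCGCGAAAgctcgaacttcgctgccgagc
Nusap1: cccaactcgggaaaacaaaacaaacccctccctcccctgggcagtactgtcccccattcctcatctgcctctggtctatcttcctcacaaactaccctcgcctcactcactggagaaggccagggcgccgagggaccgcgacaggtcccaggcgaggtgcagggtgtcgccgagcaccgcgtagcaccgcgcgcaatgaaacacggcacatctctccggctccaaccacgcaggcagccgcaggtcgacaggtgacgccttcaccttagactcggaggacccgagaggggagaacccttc
Ube2c: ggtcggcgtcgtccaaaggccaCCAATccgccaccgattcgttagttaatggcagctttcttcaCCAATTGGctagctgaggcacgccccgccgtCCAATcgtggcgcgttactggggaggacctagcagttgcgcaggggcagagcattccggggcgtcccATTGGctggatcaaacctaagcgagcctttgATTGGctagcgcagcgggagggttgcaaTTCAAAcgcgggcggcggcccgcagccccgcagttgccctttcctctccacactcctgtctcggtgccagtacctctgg
E2f8 held 1 match to TTTGAA and 1 to CCAAT, Clspn 1 to the E2F motifs and 2 to CCAAT, and Ube2c 1 to TTTGAA and 6 to CCAAT, while Nusap1 held none of these letters in this window. Nusap1 was at 349, 445 and 142 against 7.38, 12.7 and 3.75 CPM, and Ube2c at 453, 814 and 179 against 24.3, 19.5 and 12.5 CPM in the non-cycling partners. Every cycling sum of both genes stood above every non-cycling one, as the choice of cells requires.

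Inhibitors and cyclins of G1 changed in both directions. Of 15 such genes 14 were tested, and 3 were higher and 3 lower, against 9.8% of all genes called in either direction. The CDK4/6 inhibitor p18 (Cdkn2c, chromosome 4, 109660876 to 109667189) was at 121, 129.8 and 19.0 against 23.2, 20.3 and 3.13 CPM in the non-cycling partners. It was higher in each run, but the third run was low in both classes, so that its cycling value lay below the non-cycling values of the other runs (log2 fold change 2.54 ± 0.19, edgeR adjusted p = 2.33e-08, 3 runs). The related inhibitor p19 (Cdkn2d) was at 77.4, 115 and 62.6 against 42.2, 34.8 and 40.0 CPM, and every cycling value stood above every non-cycling one (log2 fold change 1.09 ± 0.18, edgeR adjusted p = 0.000397). Among the cycling cells, both inhibitors were higher where G2/M UMIs outnumbered S phase UMIs, as given below. The part of the choice of cells by Mki67 and Top2a in these increases was not tested.

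The D-type cyclins, which start the passage through G1, moved apart. Cyclin D2 (Ccnd2, chromosome 6, 127125162 to 127152193) was at 169, 139 and 220.5 against 318, 309 and 379 CPM. It was lower in 3 of 3 runs with no overlap between the classes (log2 fold change -0.93 ± 0.11, edgeR adjusted p = 7.17e-06). Among the cycling cells it was also lower where G2/M UMIs outnumbered S phase UMIs, and the part of the choice of cells was not tested. Cyclin D3 (Ccnd3), which is known to be needed for the divisions after pre-TCR signals, was at 334, 309 and 219 against 255, 293 and 132 CPM. The step was small in the second run, the classes overlapped, and the call (log2 fold change 0.40 ± 0.12, edgeR adjusted p = 0.0467) was lost without the first or the third run and without cells of high doublet score. The antiproliferative genes Btg1 (log2 fold change -0.59 ± 0.12, edgeR adjusted p = 0.00200) and Btg2 (log2 fold change -0.84 ± 0.18, edgeR adjusted p = 0.00313) were lower, and neither call held without cells of high doublet score.

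**Figure D2:**
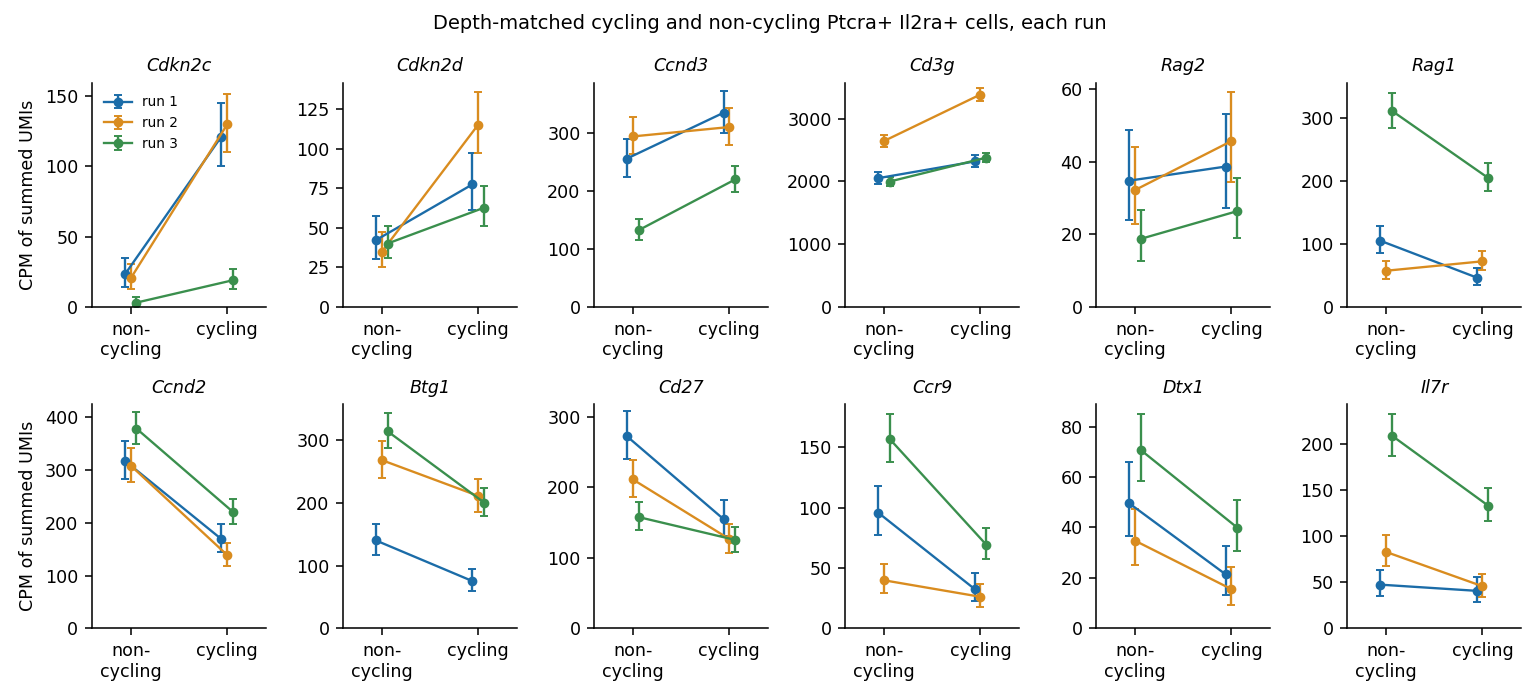
CPM (vertical) of 12 genes in the summed non-cycling and cycling Ptcra+ Il2ra+ cells of each run at matched depth, with lines joining the classes of a run and bars for exact 95% Poisson intervals, which cover counting error only. Cdkn2c and Cdkn2d are higher and Ccnd2, Cd27, Ccr9 and Dtx1 lower in the cycling cells of every run, while Rag1 is lower in the first and the third run and not in the second.

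Receptor and recombinase genes were called at about the share of all genes (9.8%). In the list of pre-TCR and CD3 genes, 1 of 6 passed the test, the CD3γ gene Cd3g, at 2317, 3383 and 2378 against 2051, 2641 and 1997 CPM (log2 fold change 0.27 ± 0.08, edgeR adjusted p = 0.0345). It was higher in each run with overlap between runs, and the call was lost without the first or the third run and under DESeq2. Without depth matching Cd3g turned to -0.26. Cd3d was at 697, 814 and 1002 against 1053, 702 and 1279.6 CPM, lower in the first and the third run and higher in the second (edgeR adjusted p = 0.219). Of 8 genes for V(D)J recombination, 0 passed the test in edgeR or DESeq2, and 1 had an unadjusted p under 0.05 in edgeR. Rag1 was at 46.8, 72.7 and 205 against 105, 57.6 and 312 CPM, lower in 2 of 3 runs and not past the threshold (log2 fold change -0.48 ± 0.17, edgeR adjusted p = 0.0935). Rag2 was at 38.7, 45.7 and 26.4 against 34.8, 32.2 and 18.8 CPM (log2 fold change 0.40 ± 0.20, edgeR adjusted p = 0.267). The pairing by depth bears on these values. Over all cells of both classes Rag1 was at 53.7, 55.1 and 112 CPM against 178, 115 and 445 CPM, and Rag2 had a log2 fold change of -0.43.

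Surface genes that change around β-selection were lower or did not pass the test. Of 8 such genes 7 were tested, and 4 were lower and 0 higher, against 2.98% of all genes lower. Their median log2 fold change was -0.47 against -0.01 over all genes. The co-stimulatory receptor Cd27 was at 155, 127 and 125 against 272, 211 and 158 CPM, lower in each run and without overlap (log2 fold change -0.61 ± 0.12, edgeR adjusted p = 0.00207). Cd28 was at 46.8, 28.6 and 41.8 against 64.3, 64.4 and 64.4 CPM, also without overlap (log2 fold change -0.72 ± 0.17, edgeR adjusted p = 0.00958). The adhesion receptor Cd2 (-1.76 ± 0.42) and the amino acid carrier chain Slc3a2 (-0.47 ± 0.13) were the other members. Cd27 kept its call in every setting but the fit without the run as a block, whereas Cd28 lost it without the second run, Cd2 without the first, and Slc3a2 without the first or the second, and all 3 of these lost it under DESeq2. Cd8a, Cd8b1 and Trac, which are among the markers of DP or αβ T cells, were set to 0 by the rule in the cycling cells only. In part by that choice, the non-cycling partners had higher sums of the DP or αβ T cell markers, at 75.1, 87.5 and 46.5 against 6.04, 1.62 and 1.83 CPM. They held more cells of high doublet score as well (26.2, 21.8 and 23.3% against 10, 5.44 and 14.3%). The part of such cells in these decreases was not tested beyond these settings. The Notch target Dtx1 was at 21.4, 15.5 and 39.9 against 49.6, 34.8 and 70.7 CPM, lower in each run with overlap between runs (log2 fold change -0.98 ± 0.19, edgeR adjusted p = 0.00147), and it was the 1 lower gene of 4 tested in the Notch list. Its call held without any 1 of the runs and did not hold under DESeq2. Notch1 was at 196, 134 and 339 against 251, 147 and 395 CPM (edgeR adjusted p = 0.196). Of 7 tested genes that respond to receptor signals, Nr4a1 (-1.72 ± 0.44) and Cd6 (-1.81 ± 0.33) were lower, on at most 10 UMIs in any cycling sum, and neither call held under DESeq2.

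Several homing and cytokine receptors were lower. Of 5 tested homing genes 3 were lower and 1 higher, and of 4 tested cytokine receptor genes 2 were lower and 0 higher. Over all genes 2.98% were lower and 6.82% higher. The chemokine receptor Ccr9 was at 32.6, 26.1 and 69.4 against 96.0, 39.8 and 157 CPM. It was lower in each run, with the third run high in both classes (log2 fold change -1.14 ± 0.16, edgeR adjusted p = 6.08e-05), and its call held under DESeq2 and without cells of high doublet score. The integrin chain Itgb7 (-2.15 ± 0.33) and Klf2, a factor for thymic egress (-0.83 ± 0.17), were also lower, but without cells of high doublet score Klf2 lost its call and Itgb7 no longer passed the filter on low counts. The IL-7 receptor chain Il7r was at 40.7, 45.7 and 133 against 47.5, 83.1 and 209.6 CPM (log2 fold change -0.62 ± 0.14, edgeR adjusted p = 0.00781), and the shared γ chain Il2rg was lower by a smaller step (log2 fold change -0.44 ± 0.13, edgeR adjusted p = 0.0354). Neither held under DESeq2, and Il2rg lost its call when any 1 of the runs was left out. Of 9 genes linked to quiescence, 4 were lower by edgeR (Btg1, Klf2, Pik3ip1 and Il7r), and DESeq2 called 1 of the 9. Pik3ip1 kept its edgeR call without cells of high doublet score (log2 fold change -0.55 ± 0.12, edgeR adjusted p = 0.00451).

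Genes called among the growth lists were near the 9.8% of all genes. Of 12 genes for Myc, ribosome biogenesis and translation, 0 passed the test in edgeR or DESeq2 (1 at an unadjusted p under 0.05 in edgeR), with a median log2 fold change of 0.04, and Myc itself was at 152, 117 and 62.0 against 165, 134 and 71.3 CPM (edgeR adjusted p = 0.478). Of 13 tested glycolysis genes, Aldoa was lower in 3 of 3 runs (log2 fold change -0.78 ± 0.13, edgeR adjusted p = 0.000535) and Gapdh higher (log2 fold change 0.34 ± 0.08, edgeR adjusted p = 0.0123), and the Gapdh call was lost without the first or the third run. Among survival genes 1 of 9 tested was lower (Bak1, log2 fold change -0.58 ± 0.17, edgeR adjusted p = 0.0319), among T lineage factors 1 of 12 (Ets1, log2 fold change -0.38 ± 0.10, edgeR adjusted p = 0.0258) and among receptor kinases and adaptors 1 of 8 (Zap70, log2 fold change -0.68 ± 0.20, edgeR adjusted p = 0.0377), shares near the 9.8% of all genes. Bak1 lost its call without the first or the second run, Ets1 without the first or the third, and Zap70 without any 1 of the runs, and without depth matching Zap70 turned to 0.10. In the γδ list, Sox13 (-1.16 ± 0.29) and Tcrg-C4 (-0.40 ± 0.10) were lower among 6 tested, the latter a γ constant gene that may share reads with its near-identical copies, and Sox13 lost its call without the third run and Tcrg-C4 without the second. Gapdh, Bak1, Ets1, Zap70, Sox13 and Tcrg-C4 also lost their calls under DESeq2.

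By the same rule, the 8 largest decreases included genes known from myeloid or innate lymphoid cells. They were Cd74, S100a4, Cd52, Ltb, Id2, Ctsw, Capg and Ccr9. The invariant chain Cd74 was at 1.02, 1.63 and 8.60 against 11.6, 1.70 and 234 CPM (log2 fold change -4.43 ± 0.33, edgeR adjusted p = 1.83e-08), and without the third run it no longer passed the filter on low counts. In that run 17 of 133 non-cycling cells held 374 UMIs and 1 of them held 115. Cd52 was at 51.9, 76.7 and 70.6 against 143, 321 and 320.4 CPM, lower in each run and without overlap (log2 fold change -1.96 ± 0.14, edgeR adjusted p = 8.58e-09). Among the non-cycling partners, 26.2, 21.8 and 23.3% had a doublet score in the highest 8% of their run, against 10, 5.44 and 14.3% of the paired cycling cells. The 8 myeloid or dendritic markers summed to 225, 249.9 and 531 CPM in the partners against 160.2, 222 and 197 CPM, with Cst3 the most abundant except in the partners of the third run, where it was Cd74, and Csf1r at 0 in the cycling sums. The 6 NK or ILC markers summed to 184, 549 and 351 CPM against 125, 194 and 175 CPM, with Nkg7 the most abundant in both classes.

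Other settings bear on these decreases. Without cells of high doublet score, 4 of the 8 genes kept their calls, Id2 and Ctsw moved to -0.14 and -0.31, and Cd74 and S100a4 no longer passed the filter on low counts. The non-cycling class was not selected on Cd8a, Cd8b1 and Trac, and the 5 markers of DP or αβ T cells summed to 75.1, 87.5 and 46.5 CPM there against 6.04, 1.62 and 1.83 CPM. With these transcripts at 0 in both classes, 470 genes were higher and 213 lower, and the same 4 of the 8 kept their calls (Cd52, Ltb, Capg and Ccr9). Of all named gene results against non-cycling cells, 10 lost their call in this setting and 1 gained one. The gate on CD11b, CD11c, NK1.1 and B220 was set against myeloid, NK and B cells, and the part of mixed droplets or of other cells that passed it in the remaining decreases was not tested.

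**Figure D3:**
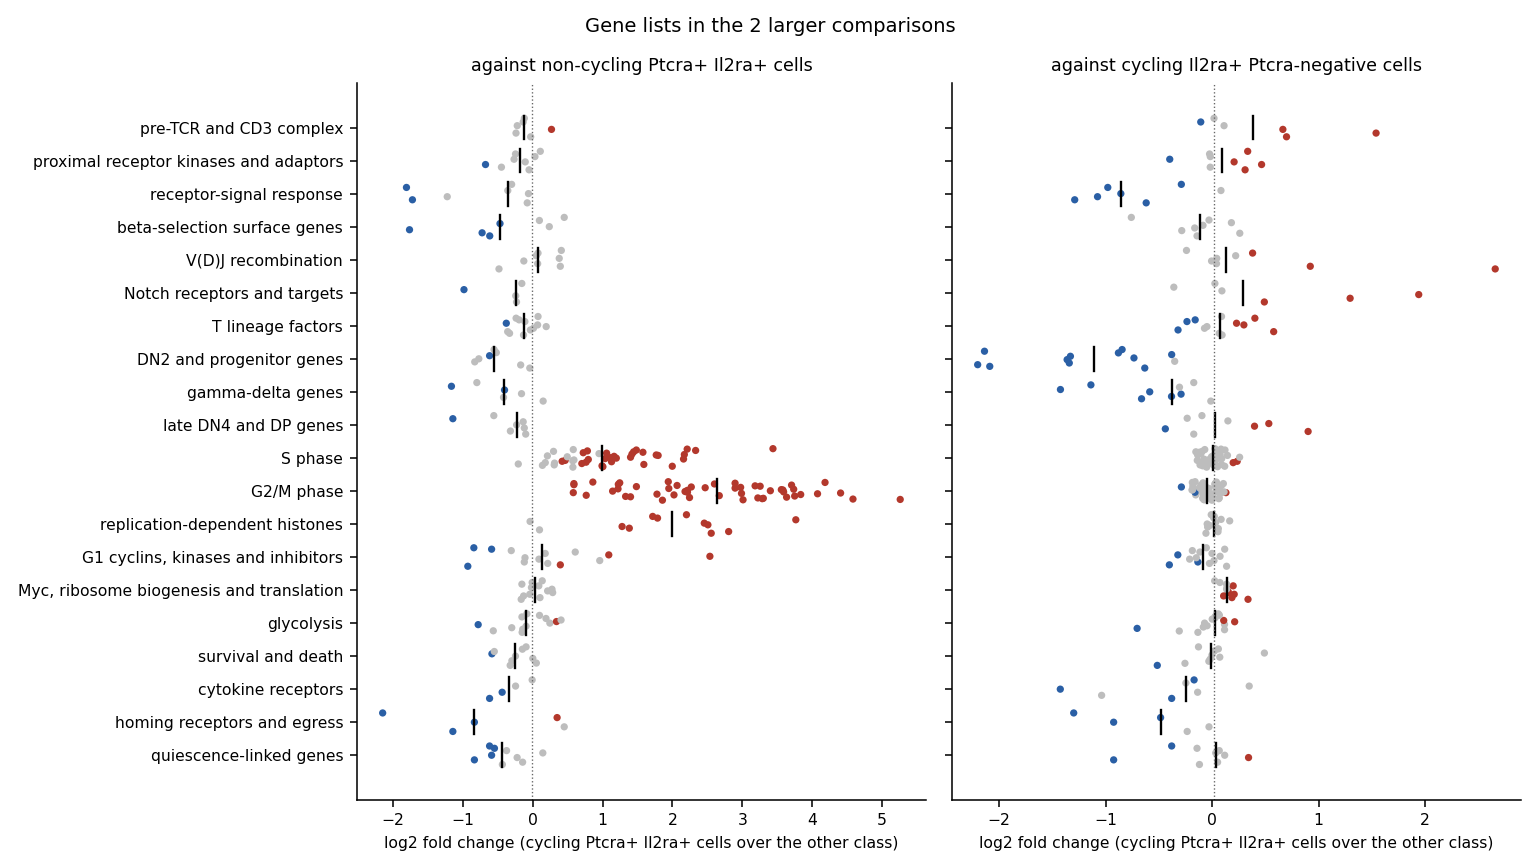
Log2 fold change (horizontal) of every tested gene in 20 lists (vertical) in cycling Ptcra+ Il2ra+ cells against non-cycling Ptcra+ Il2ra+ cells (left) and against cycling Il2ra+ cells without Ptcra (right), both at matched depth. Red and blue points passed an edgeR adjusted p of 0.05 as higher and lower, black bars are list medians and the dotted line is the median of all genes tested. On the left the S phase, G2/M and histone lists lie far to the right, as the choice of cells requires, and on the right the DN2 and progenitor genes lie to the left with a median of -1.11.

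The second question was how the cells differed from cycling cells with Il2ra but without a Ptcra UMI. There were 266, 797 and 873 of these in the 3 runs, which gave 192, 384 and 432 pairs at matched depth. Of 9709 genes tested, 406 (4.18%) were higher and 539 (5.55%) lower in the cells with Ptcra by edgeR, 9.73% in either direction. The cell cycle was close between the classes, with S phase genes at 7104, 5698 and 6516 CPM against 6861, 5847 and 6455 CPM and G2/M genes at 10894, 15012 and 10009 against 11764, 14642 and 10496 CPM. A cell can miss a Ptcra UMI by low capture, so the class without it may hold cells that express the gene.

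Recombinase and CD3 genes were higher in the cells with Ptcra. Rag1 (chromosome 2, 101638282 to 101649501) was at 48.8, 55.1 and 112 against 15.9, 8.72 and 15.9 CPM. Every value with Ptcra stood above every value without (log2 fold change 2.66 ± 0.12, edgeR adjusted p = 4.38e-14). Rag2 was at 32.1, 39.6 and 24.7 against 24.1, 22.6 and 10.7 CPM, also without overlap (log2 fold change 0.92 ± 0.13, edgeR adjusted p = 1.39e-05). With Xrcc6, a subunit of the Ku complex for end joining (0.38 ± 0.05), 3 of 8 genes for V(D)J recombination were higher and 0 lower. Over all genes 4.18% were higher and 5.55% lower. In the list of pre-TCR and CD3 genes, 3 of 6 were higher and 1 lower. Cd3d (chromosome 9, 44981786 to 44987339) was at 616, 629 and 686 against 349.5, 158 and 228 CPM, again without overlap (log2 fold change 1.54 ± 0.10, edgeR adjusted p = 4.80e-11), and Cd3e (0.70 ± 0.05) and Cd3g (0.67 ± 0.03) were higher as well. The β constant gene Trbc1 was lower by a small step (log2 fold change -0.11 ± 0.03, edgeR adjusted p = 0.0305), a call that was lost without the second run. The 6 calls of higher genes held under DESeq2, after thinning to 3000 UMIs, without cells of high doublet score and without any 1 of the runs.

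Notch genes and receptor kinases followed. Notch3 was at 31.6, 26.4 and 40.0 against 13.5, 13.2 and 15.0 CPM, without overlap (log2 fold change 1.30 ± 0.12, edgeR adjusted p = 3.03e-08). Dtx1 was at 28.7, 12.2 and 24.2 against 8.83, 2.59 and 6.48 CPM, also without overlap (log2 fold change 1.94 ± 0.17, edgeR adjusted p = 6.55e-09), and Notch1 was higher by 0.49 ± 0.06. These were 3 of 6 tested Notch genes, with 0 lower, against 4.18% of all genes higher and 5.55% lower. Their calls held in the settings just named. Of 8 receptor kinases and adaptors, Lck (0.31 ± 0.04), Lat (0.21 ± 0.04), Themis (0.33 ± 0.06) and Zap70 (0.47 ± 0.12) were higher and Lcp2 was lower (-0.40 ± 0.09). Zap70 lost its call without the first or the second run and Lcp2 without the third, and under DESeq2 Lck and Lat kept their calls and the other 3 did not. Of 12 T lineage factors, 4 were higher (Lef1, Gfi1, Ets1 and Tcf12) and 3 lower (Gata3, Myb and Ikzf1), with the largest step in Lef1 (0.58 ± 0.09). None of these 7 held under DESeq2. Without the third run the 3 lower genes, Ets1 and Tcf12 lost their calls, Gfi1 did so without the first or the second, and after thinning Ets1 turned to -0.0063. Of 8 surface genes around β-selection, 0 passed the test in edgeR or DESeq2 (3 at an unadjusted p under 0.05 in edgeR), with a median of -0.11.

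Progenitor transcripts were lower in the cells with Ptcra. In the list of DN2 and progenitor genes, 11 of 12 tested were lower and 0 higher, against 5.55% of all genes lower. Their median log2 fold change was -1.11 against 0.01 over all genes. Cpa3, a protease gene of early thymocytes and mast cells (chromosome 3, 20215620 to 20242181), was at 27.0, 76.8 and 63.4 against 141, 324 and 269 CPM. Every value with Ptcra stood below every value without (log2 fold change -2.09 ± 0.06, edgeR adjusted p = 5.62e-18). The bHLH factor Lyl1 was at 4.02, 8.48 and 4.01 against 17.7, 35.1 and 21.6 CPM, without overlap (log2 fold change -2.20 ± 0.16, edgeR adjusted p = 2.81e-10). Kit, the receptor for stem cell factor, was at 6.31, 11.5 and 23.4 against 12.4, 21.5 and 34.3 CPM, lower in each run with overlap between runs (log2 fold change -0.63 ± 0.12, edgeR adjusted p = 0.000854). Cd34 (-2.14 ± 0.31), Hhex (-1.34 ± 0.19), Spi1, which encodes PU.1 (-1.36 ± 0.19), and Cd44, the surface marker that parts DN2 from DN3 cells (-1.33 ± 0.22), were lower as well. Under DESeq2, 5 of the 11 kept their calls and after thinning to 3000 UMIs 4 did, Cpa3 and Lyl1 among them in both. Il7r and Mef2c lost their calls without the third run, and Mycn without the second. All 5 tested myeloid or dendritic markers were lower in the same comparison, with a median of -1.01, as were Nkg7 and Hbb-bt, and the part of such cells in the progenitor result was not tested.

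Genes of the γδ lineage and of receptor signals were also lower. Of 9 γδ genes, 6 were lower and 0 higher, against 5.55% of all genes lower. The 6 were led in level by the γ constant genes, which share sequence and may share reads. Tcrg-C1 was at 514, 919.8 and 402 against 898, 1515 and 595 CPM, lower within each run, with the second run high in both classes (log2 fold change -0.66 ± 0.04, edgeR adjusted p = 2.78e-12). Tcrg-C2 (-0.38 ± 0.04) and Tcrg-C4 (-0.29 ± 0.05) were lower too, while Sox13, Maf and Etv5 kept their calls neither without the third run, nor without cells of high doublet score, nor under DESeq2. The 6 NK or ILC markers had lower sums in each run as well, at 88.5, 195 and 159 CPM against 199.6, 314 and 259 CPM, with Nkg7 the most abundant in both classes and lower (-0.80 ± 0.05), and their part in the γδ result was not tested. Of 7 tested response genes, 6 were lower, among them Nr4a1 (-1.29 ± 0.18), Cd5 (-1.08 ± 0.19) and Cd69 (-0.86 ± 0.08). Without the third run Egr1, Cd5 and Nfkbia lost their calls, and 1 of the 6 held under DESeq2.

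Growth genes were higher by small steps. Of 12 genes for Myc, ribosome biogenesis and translation, 7 were higher, against 4.18% of all genes. Myc was at 147, 114 and 60.3 against 113, 93.1 and 48.7 CPM (log2 fold change 0.34 ± 0.06, edgeR adjusted p = 0.000522), and Ncl, which encodes nucleolin, was higher by 0.19 ± 0.03. The count of called genes in this list was 1 under DESeq2 and 2 without the third run. Of 10 survival and death genes 1 was lower and 0 higher, a share near the 9.73% of all genes. It was Bcl2, which protects from apoptosis, at 129, 132 and 161 against 203, 199 and 220.0 CPM (log2 fold change -0.51 ± 0.05, edgeR adjusted p = 2.07e-07). Ccnd3 was lower (log2 fold change -0.40 ± 0.04, edgeR adjusted p = 2.07e-07), whereas against non-cycling cells it was higher. The homing genes Klf2 (-0.92 ± 0.14) and Itgb7 (-1.30 ± 0.20) were lower, and neither call held under DESeq2. Of 8 tested genes of late DN4 and DP cells, Aqp11 (0.53 ± 0.06), Arpp21 (0.40 ± 0.04) and Ets2 (0.90 ± 0.17) were higher and Tox lower (-0.44 ± 0.09), and the Ets2 call was lost without the third run and those of Ets2 and Tox under DESeq2.

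Among genes with at least 50 CPM in the higher class and the same direction in each run, the 8 largest increases were of Rag1, Cd3d, Dgkeos, Arl5c, Hdac4, Hivep3, Ldhb and Trgv2, of which Dgkeos is an antisense gene whose reads may belong to its partner, and the 8 largest decreases of Igkc, Cpa3, Igfbp4, Ctla2a, Nrgn, Vim, Serpinb1a and Scin. The histone deacetylase gene Hdac4 was at 73.5, 67.6 and 122 against 35.3, 30.4 and 51.8 CPM (log2 fold change 1.22 ± 0.07, edgeR adjusted p = 8.48e-12), and Vim, which encodes vimentin, at 45.3, 89.3 and 78.8 against 102, 205 and 215 CPM (log2 fold change -1.30 ± 0.06, edgeR adjusted p = 1.81e-13). Igkc rested on 1 cell. In the second run, 1 of the 384 cells without Ptcra held 4375 of their 4579 UMIs, and the log2 fold change of -2.66 became -0.10 without that run. The other 15 of these calls held when any 1 of the runs was left out. The 5 tested myeloid or dendritic markers were all lower (Cd74, Cst3, Fcer1g, Lyz2 and Tyrobp), and the 8 of that list summed to 144, 207 and 187 CPM against 172, 268 and 275 CPM. Without the third run, Fcer1g and Tyrobp kept their calls and the other 3 did not. The globin gene Hbb-bt, which may share reads with its copy Hbb-bs, was lower (-2.93 ± 0.25), and of its 280 UMIs without Ptcra in the second run 139 were in 1 cell. Cells of high doublet score made up 15.6, 13.0 and 13.0% of the paired cells with Ptcra and 8.33, 10.2 and 7.87% of those without. Without such cells 451 genes were higher and 557 lower.

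**Figure D4:**
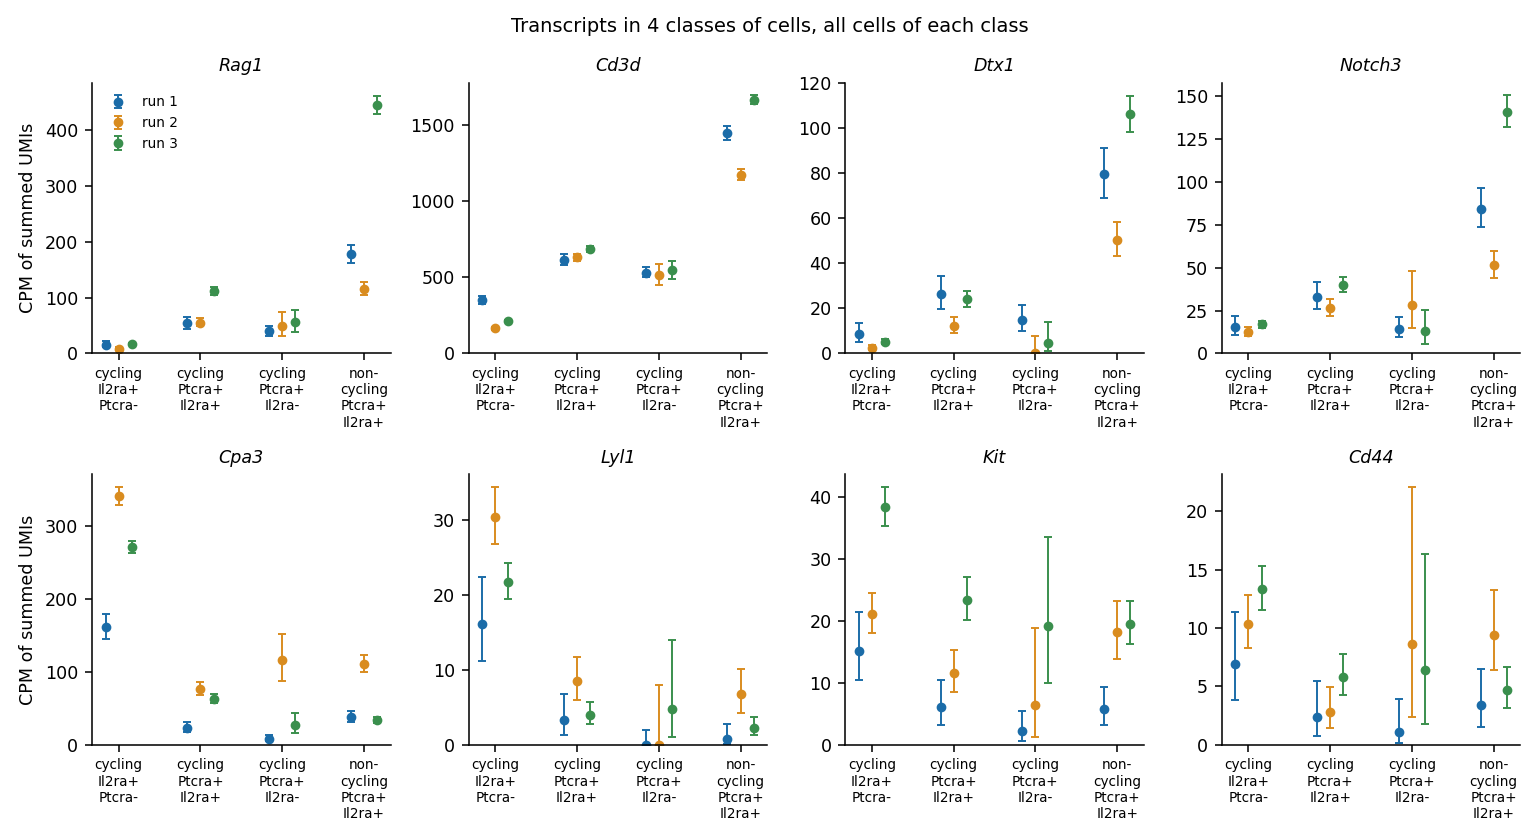
CPM (vertical) of 8 genes in the summed cells of 4 classes in each run, over all cells of a class and without matching of depth, with exact 95% Poisson intervals for counting error. Rag1, Cd3d, Dtx1 and Notch3 are highest in the non-cycling cells of each run, and Cpa3, Lyl1 and Kit are highest in the cycling cells without Ptcra.

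Rag1 and Cpa3 were also looked at cell by cell. With each cell thinned to 4000 UMIs, a Rag1 UMI was present in 33 of 210 (15.7%), 77 of 384 (20.1%) and 116 of 433 (26.8%) cycling Ptcra+ Il2ra+ cells of the 3 runs, and a Cpa3 UMI in 13 (6.19%), 83 (21.6%) and 67 (15.5%). Both were present in 1, 4 and 14 cells, and neither in 165, 228 and 264. Before thinning, the shares were 32.6%, 36.1% and 56.1% for Rag1 and 9.77%, 38.4% and 32.8% for Cpa3. The Cd79a cells of the third run, at the same 4000 UMIs (272 cells, with 136 shallower ones left out), gave 8.82% for Rag1 and 5.88% for Cpa3. Whether these cells express Rag1 themselves was not tested. Among non-cycling Ptcra+ Il2ra+ cells at that depth (235, 456 and 836 cells, with 404, 208 and 11 shallower ones left out), Rag1 was present in 40%, 30.04% and 70.1% and Cpa3 in 14.04%, 22.8% and 6.94%, so the Rag1 share was above that of the cycling cells in each run. In cycling cells without Ptcra, Cpa3 was the more frequent of both in each run, with Rag1 in 6.46%, 2.89% and 5.53% and Cpa3 in 35.4%, 57.0% and 52.2%, so their Rag1 share in the third run was not above that of the Cd79a cells.

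The third comparison was with cycling cells that had Ptcra but no Il2ra UMI, which numbered 174, 47 and 35 and gave 173, 46 and 34 pairs. In the third run G2/M genes were at 10500.5 CPM against 6460.1 CPM and histone genes at 11405 against 7916 CPM, while in the other runs G2/M genes were at 10723 against 10388 CPM and at 14239 against 16856 CPM. Cells of high doublet score made up 21.4, 10.9 and 11.8% of the paired cells with Il2ra and 10.4, 10.9 and 11.8% of those without. The part of these gaps in the results was not tested. Few genes passed the test. Of 5979 genes tested, 13 (0.217%) were higher and 2 (0.0335%) lower by edgeR (0.251% in either direction), with 427 at an unadjusted p under 0.05, and DESeq2 called 2 higher and 0 lower. Dqx1 had the largest increase, at 73.4, 82.5 and 30.7 against 20.1, 28.2 and 1.61 CPM (log2 fold change 1.92 ± 0.24, edgeR adjusted p = 0.000146), with every value with Il2ra above every value without. In the first run 33 of 173 cells held 135 UMIs against 17 cells with 37. Fewer cells were behind the other runs, since in the third 4 cells held 19 UMIs against 1 UMI, and in the second 1 cell without Il2ra held 11 of 13 UMIs. The Notch target Hes1 was at 89.2, 343 and 189 against 51.7, 222 and 77.3 CPM, higher in each run with overlap between runs (log2 fold change 0.86 ± 0.14, edgeR adjusted p = 0.00287). Tcrg-C1 was at 429.7, 1016 and 267 against 235, 549.5 and 185 CPM (log2 fold change 0.80 ± 0.10, edgeR adjusted p = 0.000146) and Cd3g was higher by 0.47 ± 0.07. Gm5111, Jun, Ccdc109b, Myl10 and Tcrg-C4 were the others among the 8 largest increases by the same rule.

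The 2 lower genes were Ccr9, at 25.6, 17.4 and 53.3 against 47.3, 76.0 and 86.9 CPM (log2 fold change -1.02 ± 0.21, edgeR adjusted p = 0.0381), and the granzyme gene Gzma, at 569, 137 and 386 against 660.0, 339 and 926 CPM (log2 fold change -0.79 ± 0.14, edgeR adjusted p = 0.00992). Both were lower in 3 of 3 runs with overlap between runs, and the Ccr9 call was lost without the first run and without cells of high doublet score. Id3, which rises after receptor signals, was at 119, 52.1 and 32.3 against 186, 69.5 and 66.0 CPM and did not pass the test (log2 fold change -0.66 ± 0.15, edgeR adjusted p = 0.0551), and nor did Rag1, at 53.3, 56.5 and 88.9 against 40.3, 49.95 and 56.4 CPM (edgeR adjusted p = 0.597). Of the 8 largest increases, 0 kept their calls without the first run. Of 6 tested V(D)J genes and 11 T lineage factors 0 passed in edgeR or DESeq2, with 2 and 6 at an unadjusted p under 0.05 in edgeR, and the 2 called γδ genes of 5 tested were Tcrg-C1 and Tcrg-C4. The first run held most of the pairs. Without it 0 genes were higher and 1 lower by edgeR (159 and 113 at an unadjusted p under 0.05), without the second run 75 were higher and 24 lower, and without the third 20 and 7. After thinning to 3000 UMIs, 0 genes were called in either direction (82 and 39 unadjusted).

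The phase of the cells was described by the UMIs of the S phase and G2/M lists at 4000 UMIs per cell, with 5, 1 and 0 shallower cells left out. Mki67 and Top2a are most abundant in G2/M, so the choice of cells weights the mixture. S phase UMIs outnumbered G2/M UMIs in 78 of 210 cells of the first run (37.1%, exact 95% interval 30.6 to 44.1%), 90 of 384 of the second (23.4%, 19.3 to 28%) and 198 of 433 of the third (45.7%, 41.0 to 50.6%). Without thinning the shares were 35.7%, 23.7% and 47.1%. The split cuts a range and does not define types, since 35, 39 and 100 cells lay within 5 UMIs of equal numbers. The third run also held 58 cells with fewer than 20 UMIs of either list, against 2 and 1 in the other runs.

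**Figure D5:**
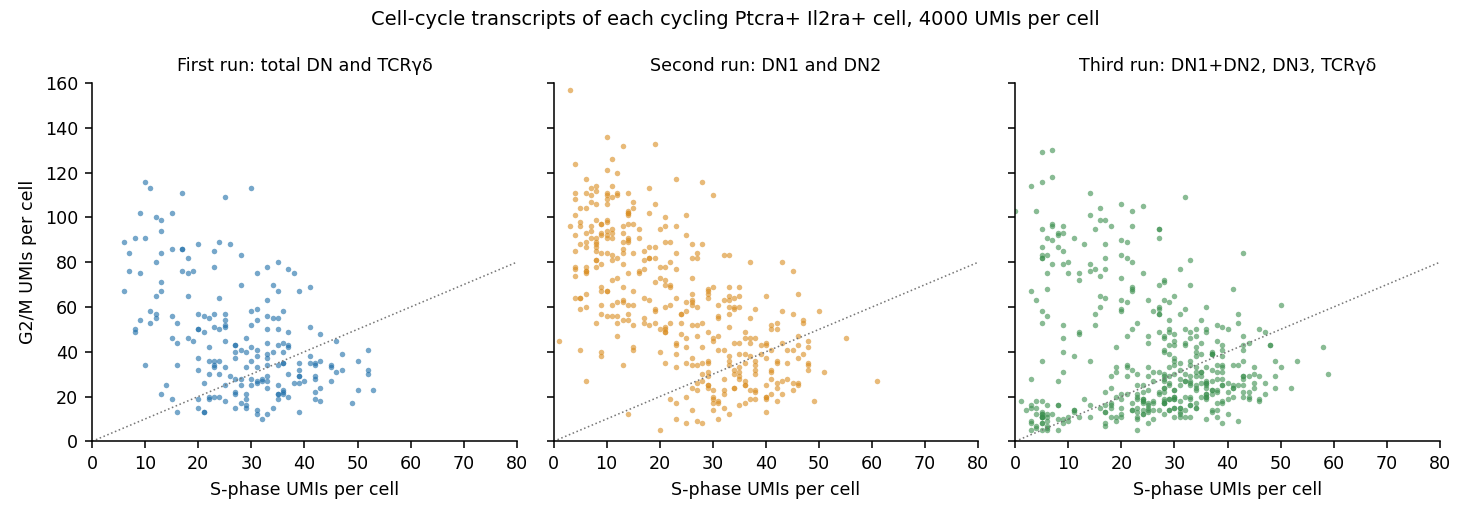
S phase UMIs (horizontal) and G2/M UMIs (vertical) of each cycling Ptcra+ Il2ra+ cell thinned to 4000 UMIs, with 210, 384 and 433 cells in the 3 runs and a dotted line at equal numbers. Cells of the second run lie mostly above the line, and the third run has a group near the origin that the others lack.

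Some genes outside the cycle lists differed with this split, and those named here were chosen after their values were seen. Rag1 was at 64.1 against 28.2, 59.1 against 39.3 and 144 against 69.2 CPM in G2/M-weighted against S-weighted cells of the 3 runs, and Rag2 at 33.2 against 21.5, 46.6 against 13.5 and 34.0 against 12.4 CPM. Both were higher in the G2/M-weighted cells in 3 of 3 runs, with 95% Poisson intervals that overlapped in the second run for Rag1 and in the first for Rag2. The inhibitors Cdkn2c, at 115 against 59.1, 118 against 60.6 and 27.3 against 11.5 CPM, and Cdkn2d, at 86.2 against 41.6, 111 against 51.7 and 78.7 against 33.5 CPM, were higher in the G2/M-weighted cells too, with intervals apart in each run. Kit and Cpa3 went the other way. Kit was at 1.47 against 14.8, 9.85 against 18.0 and 18.3 against 29.7 CPM, and Cpa3 at 19.9 against 30.9, 63.6 against 124 and 51.3 against 78.5 CPM, with intervals that overlapped in the second run for Kit and in the first for Cpa3. Ccnd2 was likewise lower in G2/M-weighted cells, at 134 against 172, 127 against 179 and 126 against 205 CPM, with intervals apart except in the first run, and Ptcra was close between them, at 238 against 243, 260.0 against 253 and 176 against 152 CPM. No test was made of these values, which compare cells of the same library.

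Between the runs, histone transcripts stood apart. At 4000 UMIs per cell, the 13 replication-dependent histone genes had a median of 5, 8 and 29 UMIs in the 210, 384 and 433 cycling cells. The non-cycling partners, which were paired with only part of the cycling cells, had a median of 1, 1 and 5 UMIs in 125, 146 and 133 cells. Id3 was at 116, 47.3 and 31.2 CPM in the cycling cells of the 3 runs, Cpa3 at 23.6, 76.7 and 63.3 CPM and Kit at 6.13, 11.5 and 23.4 CPM. Id3 was highest in the first run and Kit in the third, and the sort, the library and the depth cannot be told apart in these differences.

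Markers of other cells were summed over all cycling Ptcra+ Il2ra+ cells. The 6 B cell markers summed to 21.9, 29.5 and 61.8 CPM, of which Cd79b gave 21.9, 29.2 and 39.2, and Cd79a, Ms4a1 and Pax5 were at 0 in the first and second runs. The 8 myeloid or dendritic markers summed to 130.0, 207 and 187 CPM, with Cst3 the most abundant and Csf1r at 0 in each run. The 5 plasmacytoid dendritic markers summed to 236, 304 and 332 CPM, most of it Bst2, with Siglech at 0. The 6 erythroid markers summed to 0, 7.95 and 8.86 CPM, the 6 stromal or epithelial markers to 53.1, 54.3 and 67.8 CPM, most of it Epcam, and the 6 NK or ILC markers to 80.2, 195 and 159 CPM, most of it Nkg7. Of the 5 markers of DP or αβ T cells, 3 are at 0 by the rule, and the list summed to 7.46, 1.87 and 1.54 CPM.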

How the data were processed

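The authors deposited 10x Chromium 3′ UMI counts per gene and cell for 3 runs, not normalized. The submitters' processing notes name Cell Ranger, R 3.6.3, Seurat 2.3 and mm10, and a header of the third run gives Cell Ranger 4.0.0, while the paper names an older version beside it and does not say which runs it counted. From these counts, cells were kept when they had 500 to 5000 genes and no more than 7% of counts from mitochondrial genes. The members and gene lists were chosen with earlier results of these data known.

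Raw counts were summed per run and class over pairs matched on total UMIs within 10%, and tested with edgeR 4.0.16 (quasi-likelihood, TMM, filterByExpr, run as block) over the 27734 genes shared by identifier, with Benjamini-Hochberg adjustment. Gene levels are counts per 1000000 (CPM) of those genes, and sums over lists and levels by phase are scaled to all UMIs. Fold changes are fitted log2 values ± standard error over 3 runs. The genes that chose the cells were not tested. Some list members are not reported here. Named genes are list members, and per comparison the 8 largest fold changes each way outside the cycle lists with adjusted p under 0.05, 1 direction in all runs and at least 50 CPM.

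Both classes of a run came from 1 library, and their deviations went together (r between 0.62 and 0.92 over 3 comparisons), so the run pairs them. On simulated data for 200 changed genes, edgeR recovered 162, 177 and 162 in the 3 comparisons, with 7, 6 and 2 false calls. Of 50 genes changed 1.5-fold, the smallest change simulated, it recovered 25, 33 and 20. The counts were drawn at the fitted trend of dispersion, without single cells of extreme counts or doublets, so they do not cover smaller changes or such cells. Doublets had not been marked in the deposited counts, and cells in the highest 8% of a Scrublet score were left out as an alternative. Other alternatives were DESeq2 1.42.0, no filter on low counts, no block, no depth matching, thinning to 3000 UMIs, a 5% mitochondrial limit, at least 5 Mki67 and Top2a UMIs, and each run left out. Scripts used Python 3.11.15, scanpy 1.11.5 and R 4.3.3. Exact Poisson and Clopper-Pearson 95% intervals cover counting error only.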

Additional observations from a re-analysis of the deposited data

Results flagged for a closer look

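Cells with more than 5000 genes lay outside the limits and entered no comparison. Of these, 2 in the second run and 119 in the third met the counts that define cycling Ptcra+ Il2ra+ cells, of 2 and 552 such cells that met the mitochondrial limit.

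Between cycling and non-cycling Ptcra+ Il2ra+ cells at matched depth, the CD3δ gene Cd3d had a log2 ratio of CPM of -0.60, 0.21 and -0.35 in the 3 runs. The direction in the DN1 and DN2 sort was opposite to that in the other runs, and the difference was not tested, since each sort was made once.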

How the results depend on the processing

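Of 171 named gene results, 1778 values under alternatives were computed. Of these, 1774 kept their direction, 398 lost their call and 27 gained one. The 4 that turned round were Cd3g (-0.26), Rag2 (-0.43) and Zap70 (0.10) against non-cycling cells without depth matching, and Ets1 (-0.0063) against cells without Ptcra after thinning.

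Against non-cycling cells (542 genes higher, 237 lower), DESeq2 gave 280 higher and 40 lower, no depth matching 1879 and 2123, and thinning 297 higher. Without cells of high doublet score 132 were lower, and leaving out 1 run gave 452 to 592 higher and 186 to 252 lower. Against cells without Ptcra (406 and 539), DESeq2 gave 97 and 158, no depth matching 809 lower, and thinning 106 and 197. Leaving out 1 run gave 168 to 405 higher and 304 to 665 lower, with the lowest of both without the third. Against cells without Il2ra (13 and 2), DESeq2 gave 2 and 0, no filter on low counts 29 and 5, no depth matching 59 and 17, thinning 0 and 0 (82 and 39 at an unadjusted p under 0.05), and no high doublet scores 23 higher. Leaving out 1 run gave 0 to 75 higher and 1 to 24 lower, with 0 and 1 without the first run.

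Without the run as a block, which leaves the pairing of the classes unused, 28 genes were higher and 0 lower against non-cycling cells. Against cells without Ptcra 0 and 0 passed (64 and 100 unadjusted), and against cells without Il2ra 0 and 0 (13 and 6 unadjusted), and 149 of the 155 named gene results past the threshold lost their call.

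The share of cells meeting the rule was 2.88%, 3.37% and 4.70% in the 3 runs with at least 5 Mki67 and Top2a UMIs, and 0.181%, 0.158% and 0.362% after thinning, so depth limits it. The cause of these changes was not tested.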
